A study of Mus musculus with 8 samples.

Results

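The genes described here are 9 components of the Hedgehog signalling pathway in the mouse iris, chosen by name from the 22873 genes counted. They are the antagonist *Hhip*, the receptor *Ptch1*, the co-receptors *Boc*, *Cdon* and *Gas1*, the signal transducer *Smo*, and the transcription factors *Gli1*, *Gli2* and *Gli3*. Transcripts were counted in 34357 single nuclei that the authors had divided into 10 cell types, in 8 libraries, of which 3 were untreated, 3 constricted and 2 dilated. All mice were wild-type albino females aged 6 to 8 weeks, and each library pooled 5 to 6 irises. Dilated irises came from mice kept in the dark for 6.5 hours with hourly eye drops of phenylephrine, an alpha-adrenergic agonist, and cyclopentolate, a muscarinic antagonist. Constricted irises came from mice kept in the light for the same time with hourly drops of pilocarpine, a muscarinic agonist. Lighting differed together with the drug in both treated groups, so what each did cannot be told apart, and the untreated mice received no drops.

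In Hedgehog signalling, a secreted ligand binds PTCH1 together with the co-receptors BOC, CDON and GAS1, and this releases SMO from inhibition by PTCH1 at the primary cilium. SMO activity shifts the GLI proteins from repressors, mainly GLI3, to activators, mainly GLI2. GLI1 amplifies the response, and *Gli1*, *Ptch1* and *Hhip* are themselves classical transcriptional targets. HHIP binds the ligands at the cell surface and in the matrix and limits their range. The pathway is known in the eye mainly from the patterning of the optic vesicle and from signalling between retinal pigment epithelium, lens and anterior segment during development.

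The libraries held 5189437 to 25136427 unique molecular identifiers (UMIs), each counting 1 captured transcript, and 1274 to 7321 nuclei. The markers checked for each label were highest in the cells so labelled for sphincter 1 (4 of 4), stroma 1 (4 of 4), stroma 2, leukocytes and endothelial cells (3 of 3 each), for dilator muscle and the cells that the study calls non-epithelial ciliary body (CB) in 2 of 3, and for iris pigment epithelium (iris PE) in 1 of 3. None of the 4 sphincter 2 markers was highest there, since each is shared with sphincter 1 or dilator muscle, and 3 of them ranked second. None of the 3 markers was highest in the nuclei labelled ciliary body epithelium (CBE), where *Zic1* and *Atp1b2* ranked second. Their markers therefore did not single out these nuclei. *Slc4a4*, a CBE marker, was at a mean of 6338 CPM (UMIs per 1000000) in CB and 70.0 CPM in CBE, where it ranked only seventh of the 10 cell types, and the CBE list summed to 6100 to 6812 CPM in untreated libraries of CB against 623 to 967 CPM in those of CBE. *Zic1*, also on the CBE list, was at 705 ± 160 CPM in CBE and 764 ± 61.8 CPM in iris PE (SD, n = 3). The paper found the protein of this gene only in the nuclei of these epithelia. *Acta2*, the CB marker that was not highest in CB, ranked ninth there. Both names are therefore used below only as the study's labels. Untreated replicate 1 and dilated replicate 1 had 63 cell barcodes in common, 4.26% of the 1479 nuclei of the former, and 59 of the 63 carried the same cell type label in both. The other pairs of libraries had at most 18 in common. In untreated replicate 1, 22 of the 89 CB nuclei and 8 of the 79 CBE nuclei had a barcode that occurred in another library. The levels given below include these nuclei. Leaving out every nucleus whose barcode occurred in more than 1 library did not alter any call of a member below, and *Hhip* in dilator muscle then fell by 1.20 on the log2 scale in dilated irises, against 1.19 with all nuclei.

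*Hhip* was concentrated in the iris muscles. It marks sphincter 2, a group of sphincter muscle nuclei that numbered 352 in untreated irises (26 to 190 per library), and was chosen with that pattern known, so its levels are given as a description without a test. Levels are CPM, summed over the nuclei of a cell type in a library. In sphincter 2 nuclei the 3 untreated libraries gave 889, 866 and 1173 CPM. Dilator muscle gave 244, 275 and 315 CPM, and sphincter 1 gave 188, 179 and 124 CPM. These 3 muscle types had no overlapping values, with means of 976 ± 171, 278 ± 35.4 and 163 ± 34.8 CPM (SD, n = 3). Outside muscle the means ran from 5.65 ± 1.79 CPM in stroma 1 to 37.3 ± 28.0 CPM in endothelial cells, the latter resting on 16 UMIs, and from endothelial cells to stroma 2 each cell type's range of values overlapped that of the next in the order.

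Sphincter 2 had the highest *Hhip* level of the 10 cell types in 8 of 8 libraries. Because dilator nuclei were far more numerous, they nevertheless carried 68.2% ± 4.91 of all *Hhip* UMIs in untreated irises, compared with 19.2% ± 5.22 in sphincter 2 and 4.87% ± 1.04 in sphincter 1 (SD, n = 3). At least 1 *Hhip* UMI was found in 88.5% ± 4.80 of sphincter 2 nuclei and in 47.7% ± 1.94 of dilator nuclei, with median depths of 3334 to 4523.5 and 3344.5 to 3926 UMIs per nucleus. In stroma 1, the cell type with the lowest level, the share was 1.57% ± 0.400 at 2624 to 3113 UMIs per nucleus. With each nucleus thinned to 1000 UMIs the shares were 55.7% ± 6.97, 21.2% ± 1.07 and 0.601% ± 0.534, in the same order.

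The sequence just before the start of *Hhip* is shown because this gene marks sphincter 2 and, with *Cdon*, had the largest called changes between conditions. It is the 250 bases before the RefSeq start (GRCm38.p6, chr8:80058009-80058258, minus strand). The capitals mark a cyclic AMP response element (CRE), the palindrome TGACGTCA, whose last base lies 68 bases before the start.
Hhip: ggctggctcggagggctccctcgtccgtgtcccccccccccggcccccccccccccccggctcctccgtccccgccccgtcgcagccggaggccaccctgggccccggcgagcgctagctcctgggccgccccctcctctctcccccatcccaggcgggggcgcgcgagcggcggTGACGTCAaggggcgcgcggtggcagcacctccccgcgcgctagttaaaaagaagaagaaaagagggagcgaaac
An exact CRE was present in 1.55% of 32851 promoter windows of this length, and in none of the windows of the 6 other members that had a match in the table (*Ptch1*, *Gli2*, *Gli3*, *Smo*, *Cdon* and *Gas1*), on either strand. The GLI site GACCACCCA, the EGR site GCGTGGGCG and the AP-1 site TGANTCA were found in 0.225%, 0.536% and 6.75% of all windows and in none of these 7. A match of letters is not evidence of binding, and the absence of one concerns only this window. The *Cdon* window overlaps an exon of *Cdon* itself and the *Ptch1* and *Gli3* windows lie inside the annotated genes, so these 3 are windows at internal starts. The *Gli3* and *Gas1* windows also overlap exons of *Gm6556* and *Gm48488*.

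**Figure D1:**
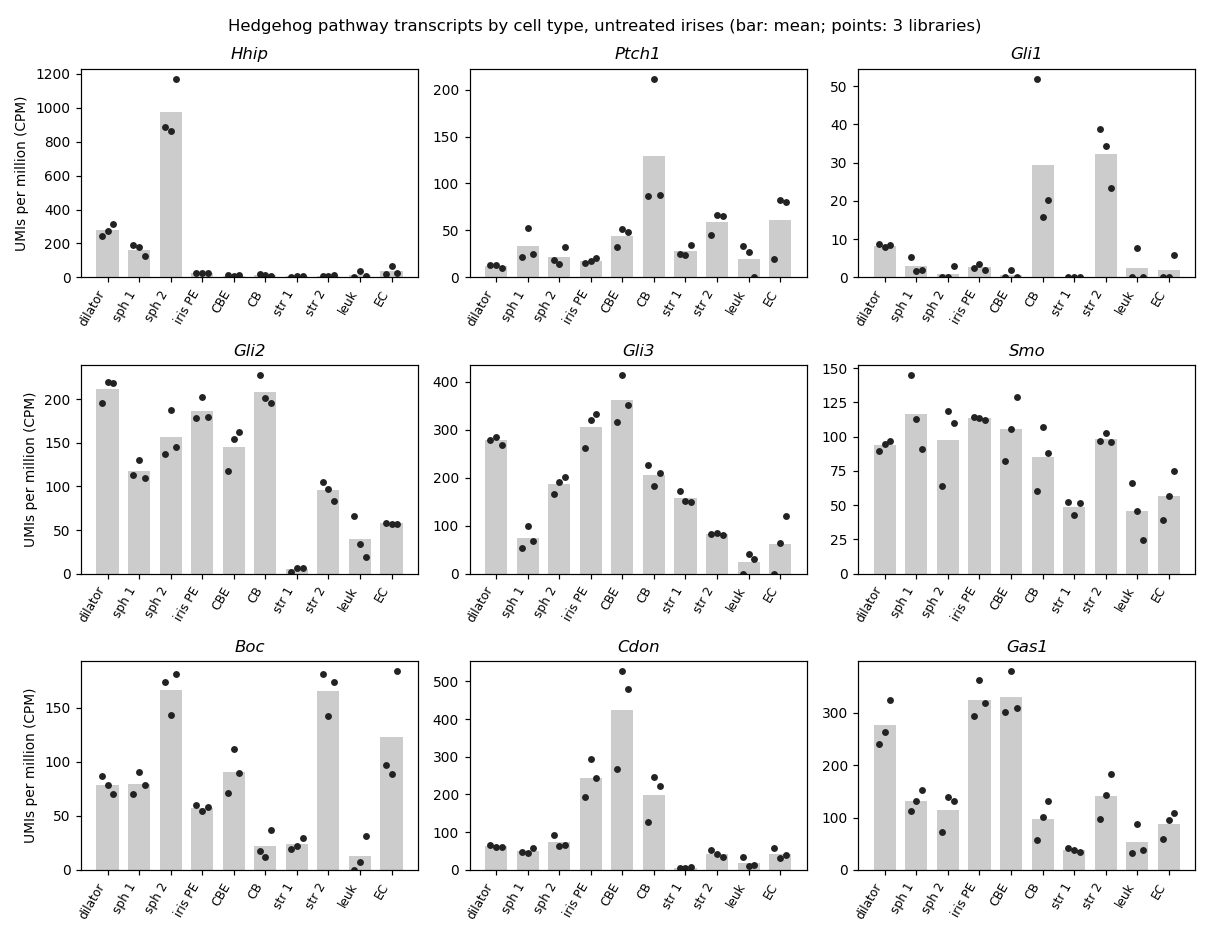
Level of each of the 9 genes in the 10 cell types of untreated irises, in CPM on a separate linear vertical axis for each gene. Bars are means and points are the 3 untreated libraries (sph, sphincter; str, stroma; leuk, leukocytes; EC, endothelial cells). *Hhip* is highest in sphincter 2 (mean 976 CPM), *Ptch1* in CB (129 CPM), *Cdon* in CBE (425 CPM), and *Smo* is the most even.

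*Ptch1*, the receptor, had another distribution. It was highest in CB nuclei, with 86.7, 212 and 87.8 CPM in the 3 untreated libraries, a mean of 129 ± 71.9 CPM that 1 library carried upward. Endothelial cells (60.7 ± 35.8 CPM) and stroma 2 (58.8 ± 12.2 CPM) followed, and the range of CB lay above that of endothelial cells. Dilator muscle was the lowest of the 10 cell types at 12.0 ± 1.80 CPM, its range below that of the next, iris PE, at 17.7 ± 2.69 CPM.

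*Gli1*, the GLI gene most directly tied to pathway output, was highest in stroma 2, with 38.7, 34.4 and 23.5 CPM, and in CB, with 52.0, 15.8 and 20.3 CPM, and the libraries of these cell types overlapped. Dilator muscle followed at 8.33 ± 0.425 CPM, below both ranges and above that of the next cell type. In sphincter 2, where *Hhip* was highest, *Gli1* was represented by 2 UMIs in the 3 untreated libraries, fewer than the 3 counts taken as the limit of detection (2.37 CPM there). In stroma 1 it had 0 of 3546394 UMIs, which allows a level of up to 0.846 CPM. *Gli1* and *Ptch1* were thus highest in stroma 2 or CB, and the other classical target among the members, *Hhip*, was at 13.8 ± 3.60 CPM in CB and 8.80 ± 2.20 CPM in stroma 2.

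*Gli2* and *Gli3*, the main mediators of activation and repression, were found both in muscle and in CB, CBE and iris PE. *Gli2* levels were 211 ± 13.6 CPM in dilator muscle, 209 ± 17.2 CPM in CB and 187 ± 13.4 CPM in iris PE, values whose ranges overlapped. It was almost lacking in stroma 1, with 20 UMIs and 4.85 ± 2.65 CPM. *Gli3* was at 361 ± 49.3 CPM in CBE, 305 ± 37.7 CPM in iris PE and, with the next level, 277 ± 8.34 CPM in dilator muscle, again with overlapping neighbours. It stood at 157 ± 12.9 CPM in stroma 1, the cell type in which *Gli1* was not detected and *Gli2* was lowest. In stroma 2, where *Gli1* was highest, the *Gli3* level was 82.6 ± 1.72 CPM. *Smo* was the most even member, between 45.5 ± 20.7 CPM in leukocytes and 117 ± 27.1 CPM in sphincter 1, and from the highest to the lowest cell type every pair of neighbours in the order overlapped.

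The 3 co-receptors differed from each other in where they were high. *Cdon* was highest in nuclei labelled as epithelia, with 267, 527 and 480 CPM in CBE and 194, 295 and 245 CPM in iris PE, and CB followed at 198 ± 62.8 CPM. The range of CB lay above that of the fourth cell type, sphincter 2, at 73.1 ± 16.1 CPM, and dilator muscle stood at 62.4 ± 2.17 CPM. *Gas1* was also highest in these 2 cell types, with 302, 380 and 310 CPM in CBE and 293, 363 and 319 CPM in iris PE, and it remained high in dilator muscle at 276 ± 43.0 CPM, above the range of stroma 2 at 141 ± 43.4 CPM. *Boc* was highest in sphincter 2, with 174, 144 and 181 CPM, and in stroma 2, with 181, 142 and 174 CPM, and it was low in CB (22.1 ± 13.3 CPM) and stroma 1 (23.8 ± 5.16 CPM).

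Genes differ in length, and nuclear libraries count intronic reads, so members were compared with each other only per 100 kb of gene span. On this scale the order in dilator muscle of untreated irises was *Gas1* (9324 CPM per 100 kb), *Smo* (363), *Hhip* (302), *Boc* (106), *Gli3* (104), *Gli2* (96.3), *Cdon* (72.1), *Gli1* (68.9) and *Ptch1* (18.5). The *Gas1* value rests on a span of 2.961 kb, against 12.093 to 266.792 kb for the others, and is not comparable with them. In sphincter 2 *Hhip* reached 1059 CPM per 100 kb, compared with 377 for *Smo*, 33.5 for *Ptch1* and 8.20 for *Gli1*. In CB *Gli1* reached 243 and *Ptch1* 197, compared with 14.9 for *Hhip*. Short spans raise values on this scale, also for *Gli1* and *Smo*. Before scaling, CB was at 129 CPM for *Ptch1* and 29.4 CPM for *Gli1*, so the order of these genes rests on the scaling. The same holds in dilator muscle for *Smo* (93.8 CPM) and *Hhip* (278 CPM).

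Transcripts whose distribution most resembled that of each member were ranked by Pearson correlation of log2(CPM + 1) over the 10 cell types of untreated irises, among 11647 genes that reached 20 CPM in at least 1 cell type. These points share libraries and differ in depth, so r is a description. The nearest to *Hhip* were *Pirt* (r = 0.97), *Dpp6* (r = 0.96) and *Gm14211* (r = 0.96). *Pirt* and *Dpp6*, which encode regulators of ion channels, were highest in sphincter 2 at 26.5 and 185 CPM. The nearest to *Gli1* were *Itfg2* (r = 0.92), *Smarce1* (r = 0.89) and *Scube1* (r = 0.89), the last a gene of the SCUBE family, whose members help to release lipid-modified Hedgehog ligands. The single nearest gene was *Igf1r* for *Ptch1* (r = 0.92), *A330015K06Rik* for *Gli2* (r = 0.98), *Ahi1*, a gene of the primary cilium, for *Gli3* (r = 0.96), *Ccdc136* for *Smo* (r = 0.97), *Cul9* for *Boc* (r = 0.98) and *AC160759.1* for *Cdon* (r = 0.98).

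Of the ligand genes, *Ihh* was represented by 31 of 109565284 UMIs in all 8 libraries, and no cell type held more than 2 in untreated irises. *Shh* and *Dhh* were not analysed here.

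The effect of treatment was tested on the summed counts with edgeR's quasi-likelihood test (two-sided), with all 8 libraries in a single fit per cell type. A call required an adjusted p (Benjamini-Hochberg over every gene tested in that cell type) under 0.05 and a log2 fold change above 0.6 in either direction. Of the 90 pairs of a member and a cell type, 63 had enough counts to be tested. *Hhip* was tested in 5 cell types and *Gli1* in 4, and none of the 9 was tested in leukocytes or endothelial cells.

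In dilated compared with untreated irises, *Hhip*, *Cdon* and *Boc* fell and *Ptch1* rose in dilator muscle, the muscle that opens the pupil, and no member was called in any other cell type. These are 4 of the 9 members in dilator muscle, where 13.3% of the 15395 genes tested were called, 7.2% higher and 6.14% lower. Over all cell types 4 of 63 pairs were called, and 3.34% of all tests over all genes were called. An unadjusted p under 0.05 in edgeR was found for 16 of the 63 pairs. Of these, 7 were in dilator muscle, where 28.3% of all genes tested had such a p. In the other cell types that share ran from 4.32% in CBE to 13.4% in sphincter 2. The median log2 fold change of the 9 members in dilator muscle was -0.48, compared with 0.015 over all genes tested there. Scaling by library size alone, without TMM normalisation, moved the latter to -0.16 and the share of calls that were higher from 54.0% (1109 of 2054) to 32.2% (726 of 2258), and the directions of the 4 called members stayed as they were.

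In dilator muscle *Hhip* stood at 244, 275 and 315 CPM in untreated libraries, 274, 250 and 243 CPM in constricted libraries and 94.1 and 120 CPM in dilated libraries. Both dilated libraries lay below the 6 others. The log2 fold change in dilated against untreated irises was -1.19 ± 0.19 (SE, 95% interval -1.59 to -0.79, adjusted p = 0.0011 in edgeR), a level 2.28-fold lower. The share of dilator nuclei with a *Hhip* UMI was 46.2%, 47.1% and 49.9% in untreated libraries and 22.8% and 25.7% in dilated libraries, and 20.5%, 20.6% and 22.4% against 8.23% and 10.2% after thinning to 1000 UMIs. With dilator muscle lower and sphincter 1 at 196 and 127 CPM, the order of these muscle types was turned in the 2 dilated libraries, whereas dilator muscle lay above sphincter 1 in the 6 others.

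*Cdon*, which encodes an immunoglobulin-family co-receptor, stood at 64.8, 61.5 and 60.7 CPM in dilator nuclei of untreated libraries, 68.9, 72.2 and 59.7 CPM in constricted libraries and 27.2 and 20.6 CPM in dilated libraries. Here too the dilated libraries lay below all others. The log2 fold change was -1.19 ± 0.16 (SE, 95% interval -1.53 to -0.84, adjusted p = 0.00043 in edgeR). *Boc*, its close relative, was at 86.7, 78.5 and 70.1 CPM in untreated, 82.9, 79.8 and 74.4 CPM in constricted, and 45.0 and 40.7 CPM in dilated libraries. The dilated group again did not overlap the others, and the log2 fold change was -0.67 ± 0.14 (SE, 95% interval -0.99 to -0.36, adjusted p = 0.0077 in edgeR). Without dilated replicate 1 or dilated replicate 2 the adjusted p of *Boc* was 0.056 or 0.054.

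*Ptch1*, whose level in dilator muscle was the lowest of all cell types, went the other way. It was at 13.1, 13.1 and 9.97 CPM in untreated, 15.3, 13.7 and 15.9 CPM in constricted, and 19.4 and 16.4 CPM in dilated libraries, resting on 21 to 93 UMIs in each untreated library. The 3 conditions did not overlap. The log2 fold change in dilated against untreated irises was 0.77 ± 0.21 (SE, 95% interval 0.32 to 1.22, adjusted p = 0.027 in edgeR), and that in constricted against untreated irises was 0.35 ± 0.20 (SE, 95% interval -0.089 to 0.78, adjusted p = 1.00 in edgeR). Under the alternatives run, this call was lost most often of the 4. It was lost in DESeq2 (0.77, adjusted p = 0.0502), without TMM (0.60, adjusted p = 0.083) and on leaving out dilated replicate 1 (adjusted p = 0.148), dilated replicate 2 (0.0995), untreated replicate 2 (0.0583) or untreated replicate 3 (0.155).

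The other 5 members were not called in dilator muscle. *Gli3* had a log2 fold change of 0.56 ± 0.16 (SE, adjusted p = 0.032 in edgeR), under the threshold on size, with 277, 285 and 269 CPM in untreated and 381 and 336 CPM in dilated libraries. *Gli2* was at 196, 220 and 219 CPM in untreated and 143 and 119 CPM in dilated libraries (-0.51 ± 0.16, SE, adjusted p = 0.0505 in edgeR), and *Smo* at 89.8, 94.6 and 97.1 CPM in untreated and 61.5 and 57.1 CPM in dilated libraries (-0.48 ± 0.15, SE, adjusted p = 0.0518 in edgeR). Without TMM, *Gli2* and *Smo* were called, at -0.69 and -0.66, and *Ptch1* was not. *Gas1* (-0.47 ± 0.22, SE, adjusted p = 0.191 in edgeR) and *Gli1* (-0.058 ± 0.31, SE, adjusted p = 0.931 in edgeR) were further from the threshold. The dilated and untreated libraries did not overlap for 8 of the 9 members, all but *Gli1*, and the same held for 48.4% of all genes tested in dilator muscle.

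**Figure D2:**
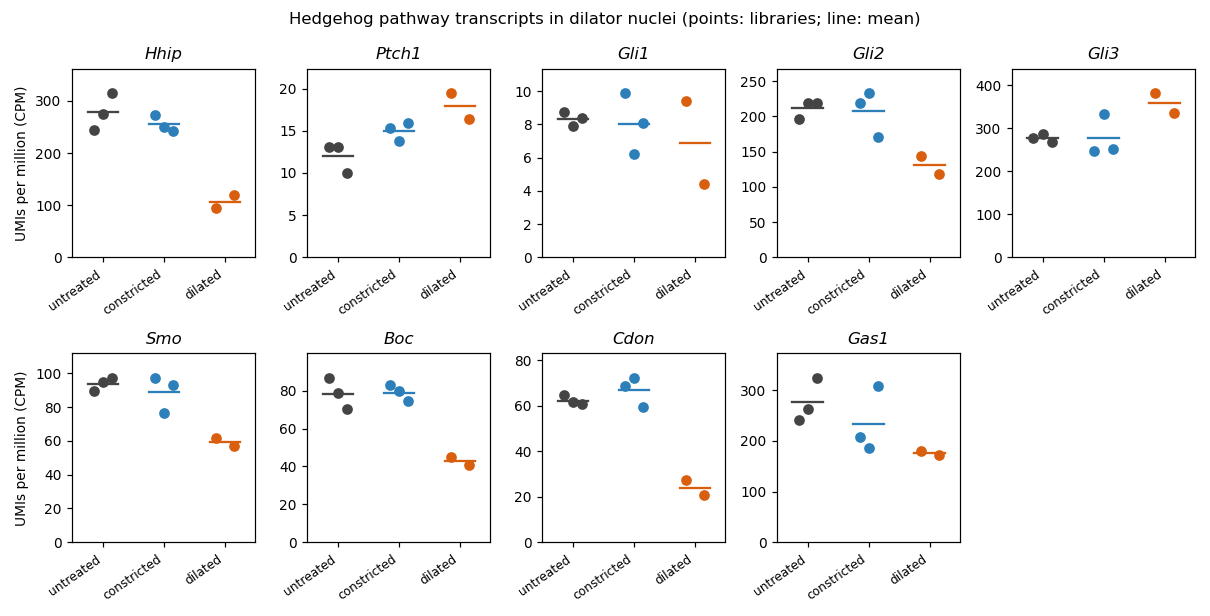
Level of each of the 9 genes in dilator nuclei by condition, in CPM on linear axes that start at 0. Points are libraries (3 untreated, 3 constricted, 2 dilated) and lines are means. Both dilated libraries lie below all others for *Hhip*, *Cdon*, *Boc*, *Gli2*, *Smo* and *Gas1* and above all others for *Ptch1* and *Gli3*.

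Dilated and constricted irises, both of which received hourly drops, gave 3 calls, all lower in dilator muscle of dilated irises, where 10.5% of genes tested were called and 4.87% were called lower. Over all cell types the share was 2.65%. *Cdon* fell by 1.30 on the log2 scale (SE 0.16, adjusted p = 0.000296 in edgeR), *Hhip* by 1.08 (SE 0.18, adjusted p = 0.0024) and *Boc* by 0.71 (SE 0.14, adjusted p = 0.0066). Without dilated replicate 1 the adjusted p of *Boc* here was 0.053. *Ptch1* differed by 0.42 (SE 0.21, adjusted p = 0.228 in edgeR). This comparison and that of dilated with untreated irises use the same dilated libraries.

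In constricted compared with untreated irises 0 of 63 pairs were called by edgeR, and DESeq2 also called 0. An unadjusted p under 0.05 in edgeR was found for 3 of the 63 pairs. The share of all genes with such a p was similar, from 4.09% in dilator muscle to 6.78% in CBE among cell types where members were tested. Over all genes 0.0065% of those tested in dilator muscle were called, and 0.0118% of the tests in all cell types. The smallest adjusted p was 0.498 in edgeR, for *Gas1* in CBE (-0.64 ± 0.22, SE, with means of 215 CPM in constricted and 331 CPM in untreated irises). The other 2 pairs with an unadjusted p under 0.05 were also *Gas1*, in iris PE (-0.57 ± 0.17, SE, adjusted p = 0.899 in edgeR) and stroma 2 (-0.63 ± 0.24, SE, adjusted p = 0.824). For *Hhip* in dilator muscle the 95% interval of the log2 fold change with constriction was -0.46 to 0.23, and for *Hhip* in sphincter 2 it was -0.27 to 0.54.

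In the other muscles no member was called after dilation in the fit without a term for library series. *Hhip* in sphincter 2 was at 889, 866 and 1173 CPM in untreated, 1113, 837 and 1203 CPM in constricted and 589 and 845 CPM in dilated libraries. The dilated libraries were below the untreated ones but overlapped the constricted ones, and the log2 fold change against untreated irises was -0.36 ± 0.22 (SE, 95% interval -0.82 to 0.092, adjusted p = 0.527 in edgeR). In sphincter 1 it was 0.058 ± 0.25 (SE, 95% interval -0.46 to 0.58, adjusted p = 0.989 in edgeR). *Gli3* in sphincter 2 was at 165, 191 and 202 CPM in untreated and 330 and 262 CPM in dilated libraries, without overlap, and had the smallest adjusted p outside dilator muscle (0.70 ± 0.23, SE, adjusted p = 0.103 in edgeR). With the series of library numbers in the labels as a term of the fit, *Gli3* was called in sphincter 2 (0.72, adjusted p = 0.032 in edgeR). Against constricted irises this fit called *Gli3* (0.91, adjusted p = 0.017 in edgeR) and *Hhip* (-0.66, adjusted p = 0.039 in edgeR) there. In dilator muscle the same term raised the share of all genes called in dilated against untreated irises from 13.3% to 20.4%. The share in sphincter 2 with this term is not given, so these calls have no background beside them. *Gli3* in stroma 1 had a log2 fold change of 0.55 ± 0.17 (SE, adjusted p = 0.119 in edgeR). *Hhip* in stroma 2 had the largest difference of all, -1.42 ± 0.51 (SE, adjusted p = 0.257 in edgeR), on only 3 to 40 UMIs per untreated or dilated library.

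**Figure D3:**
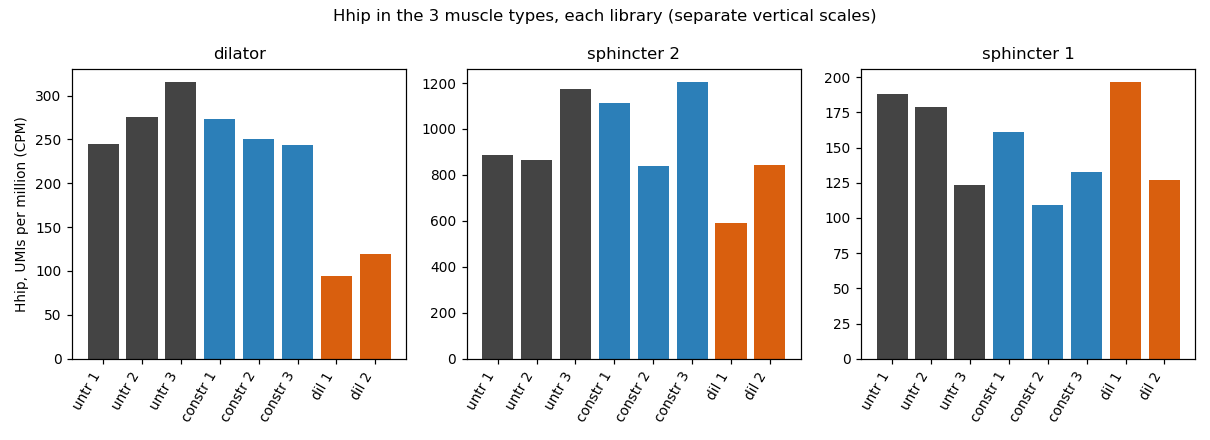
*Hhip* level in dilator muscle, sphincter 2 and sphincter 1, in CPM, 1 bar per library (untreated grey, constricted blue, dilated orange), each panel with its own linear axis from 0. In dilator muscle the dilated libraries (94.1 and 120 CPM) lie below all 6 others, whereas in sphincter 1 they lie at 196 CPM, above the 6 others, and 127 CPM, within their range.

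Whether the effect of dilation differed between dilator muscle and another cell type was tested for the 4 called members against each of the 9 other cell types, in joint edgeR fits with a term for each library. Of 36 tests, 16 had an adjusted p under 0.05 (over all genes in each joint fit). The same test passed for 5.07% of all genes over the 9 fits and for 22.9% of the genes called in dilator muscle, from 2.97% against endothelial cells to 56.5% against iris PE. The 4 members were likewise taken because they were called in dilator muscle with these libraries, so their count is a description. For *Hhip* the log2 fold change in dilator muscle was lower than that in sphincter 2 by 0.86 (SE 0.17, adjusted p = 7.2e-05), and it was also lower than those in sphincter 1 and iris PE. The difference from stroma 2 was 0.043 ± 0.36 (SE, adjusted p = 0.979 in edgeR). An SE worked back from the test is unstable so near 0. That of this difference was 0.48 without TMM and 0.077 without the filter on low counts. *Cdon* differed from 4 cell types, *Boc* from 5 and *Ptch1* from 4, of which those from iris PE and CB were lost without TMM (adjusted p = 0.074 and 0.066) and that from CB also without the filter on low counts (0.065). In sphincter 2, *Cdon* was at 73.1 ± 16.1 CPM (SD, n = 3) in untreated irises and 33.3 and 44.3 CPM in dilated libraries, and the difference between dilator muscle and sphincter 2 in its log2 fold change was -0.50 ± 0.41 (SE, adjusted p = 0.762 in edgeR).

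**Figure D4:**
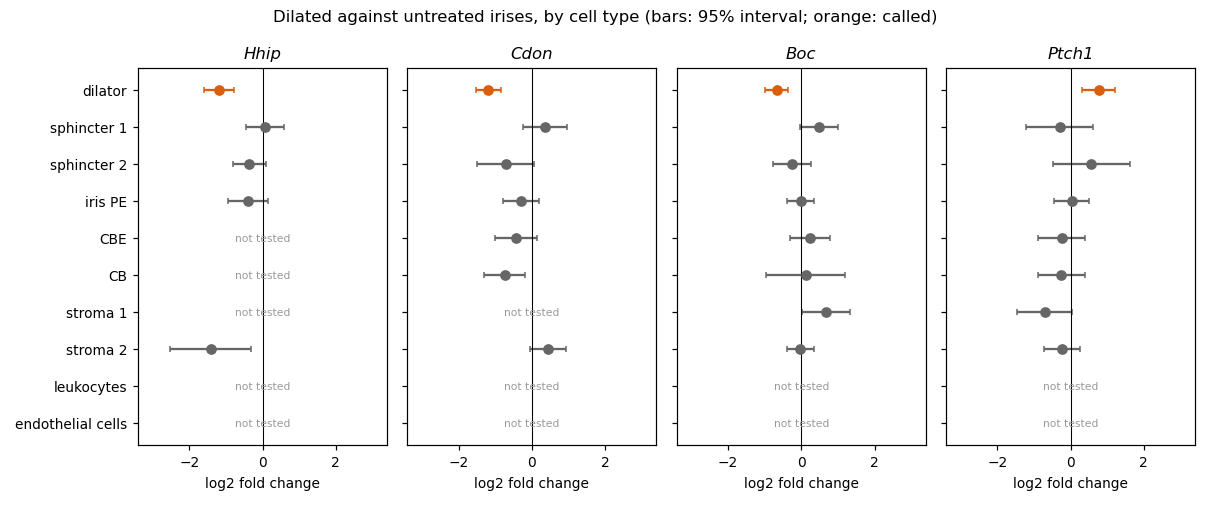
Log2 fold change in dilated against untreated irises for the 4 genes called in dilator muscle, in each cell type where the gene was tested. Points are estimates, bars are 95% intervals, and orange marks a call. *Hhip* (-1.19), *Cdon* (-1.19) and *Boc* (-0.67) are lower and *Ptch1* (0.77) is higher in dilator muscle, and none is called elsewhere.

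Marker transcripts were examined in the same dilator nuclei. The 3 dilator markers *Adra1a*, *Nos1* and *Myh11* summed to 2406 to 2832 CPM in untreated, 2654 to 2909 CPM in constricted and 1583 to 1623 CPM in dilated libraries. Against untreated irises *Nos1* fell by 0.91 on the log2 scale (SE 0.18, adjusted p = 0.0049 in edgeR). *Adra1a* (-0.52 ± 0.24, SE, adjusted p = 0.175 in edgeR) and *Myh11* (-0.50 ± 0.17, SE, adjusted p = 0.065 in edgeR) were not called. The 4 stroma 1 markers, all detected, summed to 6067 to 6603 CPM in untreated and 8248 to 8607 CPM in dilated libraries. This list is not confined to stroma 1, since in iris PE it summed to 7625 to 8544 CPM in untreated and 9981 to 11780 CPM in dilated libraries. The 3 CBE markers summed to 713 to 760 CPM in untreated and 553 to 670 CPM in dilated libraries. At much lower levels, the 4 Schwann cell markers summed to 30.0 to 34.9 and 16.2 to 24.3 CPM and the 3 pericyte markers to 11.2 to 11.4 and 2.20 to 4.25 CPM. The part of these shifts in the results above was not tested. The median depth of dilator nuclei was 3344.5 to 3926 UMIs in untreated and 3660 to 3800 UMIs in dilated libraries. The 3 iris PE markers summed to 1418 to 1723 CPM in untreated and 1410 to 1555 CPM in dilated libraries. The 4 sphincter 1 markers summed to 1787 to 2155 CPM in untreated and 1205 to 1287 CPM in dilated libraries, and the 4 sphincter 2 markers to 2253 to 2629 and 1544 to 1546 CPM. Both lists hold *Myh11*, and that of sphincter 2 also *Adra1a*, which are dilator markers too. The sphincter transcripts *Chrm3* and *Syt1* were at 18.0 to 25.3 and 38.4 to 41.1 CPM in untreated and at 17.8 to 25.5 and 33.8 to 39.7 CPM in dilated libraries. *Chrm3* or *Syt1* UMIs occurred in 14.5% to 20.6% of dilator nuclei in untreated and 14.5% to 17.9% in dilated libraries. Without those nuclei the 4 calls remained, and *Hhip* fell by 1.25, *Cdon* by 1.24 and *Boc* by 0.62 on the log2 scale. The 3 leukocyte and 3 endothelial markers summed to at most 15.6 and 28.3 CPM in dilator nuclei of untreated or dilated libraries.

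The study processed the irises in 5 batches and sequenced the libraries in 2 runs, with every condition present in both runs. Which libraries belonged to each batch or run is not given. The library numbers in the labels fall into 3 series of nearby numbers, and 2 of them hold libraries of all 3 conditions. How well these series stand in for the batches is not known. Within the series of replicate 1 libraries, *Hhip* in dilator muscle was at 244 CPM in the untreated, 274 CPM in the constricted and 94.1 CPM in the dilated library. Within the series of untreated replicates 2 and 3, constricted replicate 3 and dilated replicate 2 it was at 295, 243 and 120 CPM. *Cdon* was at 64.8, 68.9 and 27.2 CPM in the former and at 61.1, 59.7 and 20.6 CPM in the latter. *Boc* was at 86.7 and 45.0 CPM in untreated and dilated libraries of the former and 74.3 and 40.7 CPM in the latter, and *Ptch1* at 13.1 and 19.4 CPM and at 11.5 and 16.4 CPM. The direction of all 4 was therefore the same within both series. The remaining series is constricted replicate 2 alone.

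The other pathway genes in dilator muscle after dilation were read against the same 13.3%. As a set, the lists of these genes were not called more often than all genes tested there. The calls named below therefore do not set the pathway apart from other genes. Of the genes for other receptors, 0 of 2 tested were called. Of the genes for ligand release, 1 of 5 tested fell and 0 rose. *Scube1* was at 51.1 ± 3.76 CPM (SD, n = 3) in untreated libraries and 32.9 and 20.6 CPM in dilated libraries (-0.76 ± 0.18, SE, adjusted p = 0.015 in edgeR). Of 20 intracellular regulators, 1 rose and 0 fell. *Spop*, a substrate adaptor of a ubiquitin ligase that acts on GLI2 and GLI3, went from 191 ± 18.3 CPM (SD, n = 3) to 275 and 320 CPM (0.83 ± 0.13, SE, adjusted p = 0.0012 in edgeR). Neither *Sufu* nor *Kif7*, which restrain GLI proteins, was called.

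Of 12 genes of the primary cilium, in which the pathway operates, 2 fell and 0 rose. Both encode intraflagellar transport proteins, *Ift140* (-0.62 ± 0.17, SE, adjusted p = 0.031 in edgeR) and *Ift172* (-0.60 ± 0.17, SE, adjusted p = 0.034 in edgeR). Both values lie close to the threshold on size, and in dilated against constricted irises 0 of the 12 were called. Of the 6 tested genes on a list of targets, *Bcl2* rose from 71.1 ± 12.2 CPM (SD, n = 3) to 117 and 136 CPM (1.00 ± 0.17, SE, adjusted p = 0.0020 in edgeR) and *Bmp4* fell from 153 ± 32.5 CPM (SD, n = 3) to 72.5 and 73.9 CPM (-0.90 ± 0.26, SE, adjusted p = 0.036 in edgeR). Neither is specific to this pathway, since *Bcl2* is a regulator of apoptosis and *Bmp4* a ligand of another signalling family. Outside dilator muscle the only call on these lists in any of the 3 comparisons was *Bmp4* in sphincter 2, lower by 1.02 on the log2 scale in dilated than in constricted irises (SE 0.28, adjusted p = 0.041 in edgeR, where 2.45% of genes were called).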

How the data were processed

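The authors isolated nuclei from irises, prepared 10x Chromium 3′ v3 libraries, counted UMIs with Cell Ranger 3.1.0 on mm10 and clustered the nuclei with Seurat; they deposited raw UMI counts per gene and nucleus, with a cell type for each nucleus, after their own filters on nuclei. No doublet step is named in the sources used here, and none was run. Here UMIs were added up for every library and cell type, and levels are CPM of these sums. Tests used edgeR 4.0.16 (R 4.3.3, TMM, filterByExpr, quasi-likelihood F-test). Each SE from edgeR was worked back as the absolute log2 fold change divided by the square root of F. The 95% intervals rest on this SE. Alternatives were DESeq2 1.42.0, no TMM, no filter, blocks for replicate number or library series, removal of the deepest 5% of nuclei, of shared barcodes, of dilator nuclei with *Chrm3* or *Syt1* UMIs, and of each library. The removals of shared barcodes and of *Chrm3* or *Syt1* nuclei were chosen after seeing the data. On simulated counts for the dilated against untreated comparison, 79.8% of 3-fold and 6.12% of 1.5-fold changes were recovered in dilator muscle (15005 genes), and 71.9% and 5.05% in sphincter 2 (6309 genes). Recovery required the threshold on size, and a 1.5-fold change lies below it. The low shares for 1.5-fold changes were therefore largely set by that threshold and do not measure the power of the test. Their direction was right for 98.0% in dilator muscle and 94.9% in sphincter 2. Gene spans came from GENCODE vM21 (mm10) and promoter windows from RefSeq (GRCm38.p6), which held 7 of the 9 members. The members and lists were chosen with earlier results of these data known. Named genes are all members, every other listed pathway gene called in any cell type, the ligands, and the 3 genes most alike each member, of which all 3 are given for *Hhip* and *Gli1* and the first for the others, except items that are not reported here. Limits from 3 counts cover counting error only. Each library is a separate pool of irises, so p-values measure the spread between pools. Python 3.11.15 (numpy 2.4.6, scipy 1.17.1, pandas 2.3.3, matplotlib 3.10.9) was used for the other steps.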

Additional observations from a re-analysis of the deposited data

Results flagged for a closer look

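For 16 of the 36 comparisons of 4 genes picked because they were called in dilator muscle, the log2 fold change in dilated against untreated irises differed between dilator muscle and another cell type by a test of the difference itself (edgeR quasi-likelihood test of an interaction, adjusted p under 0.05). Over the same 9 joint fits the test passed for 5.07% of all genes and 22.9% of the genes called in dilator muscle. Each value is the log2 fold change in dilator muscle minus that in the other cell type. For *Hhip*, the difference was -1.33 from sphincter 1, -0.86 from sphincter 2 and -0.96 from iris PE. For *Cdon*, it was -1.53 from sphincter 1, -0.90 from iris PE, -0.73 from CBE and -1.68 from stroma 2. For *Boc*, it was -1.12 from sphincter 1, -0.70 from iris PE, -0.94 from CBE, -1.29 from stroma 1 and -0.66 from stroma 2. For *Ptch1*, it was 0.74 from iris PE, 0.99 from CB, 1.54 from stroma 1 and 1.06 from stroma 2. The *Ptch1* difference from iris PE was lost without TMM (adjusted p = 0.074), and that from CB without TMM (0.066) and without the filter on low counts (0.065). The 9 joint fits all use the same dilator counts, so these differences are not independent of each other.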

How the results depend on the processing

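*Hhip*, *Cdon* and *Boc* in dilator muscle kept their directions under every alternative in both comparisons with dilated irises, and *Hhip* and *Cdon* their calls. Member calls in dilated against untreated irises numbered 4, and 3 to 4 on leaving out an untreated or constricted library. Of all genes tested in dilator muscle, 7.47% to 14.8% were then called. Leaving out a dilated library left 1 in that group. *Boc* and *Ptch1* then lost their calls, and calls over all genes in dilator muscle also became fewer. The log2 fold change was then -0.96 or -1.46 for *Hhip*, -1.33 or -1.08 for *Cdon* and -0.67 or -0.68 for *Boc*. Member calls in dilated against constricted irises numbered 3, and 3 to 4 on leaving out an untreated or constricted library (8.45% to 12.1% of all genes in dilator muscle). *Boc* lost its call here without dilated replicate 1. With the library series as a term they numbered 6, which added *Gli3* in dilator muscle and *Gli3* and *Hhip* in sphincter 2. With a replicate block, member calls stayed at 4, 0 and 3, and calls over all genes in dilator muscle went from 2054 to 2619 (3138 with the series). In dilated against constricted irises the series term took calls over all genes in dilator muscle from 1610 to 2302. The number in sphincter 2 with that term is not given. Same-numbered libraries did not all deviate together (r from -0.032 to 0.45), and constricted replicate 3 correlated best with dilated replicate 2, so the numbers were not taken as pairs. Libraries of different conditions within a series correlated at 0.22 to 0.45 (replicate 1 series) and 0.17 to 0.45 (the other). With only 2 dilated libraries, the r of any library with 1 of them is the negative of its r with the other. The ranges of these 2 series are therefore not independent of each other. The replicate block was not run in the joint fits, whose library term contains it. Differences between cell types numbered 16, and 14 without TMM and 15 without the filter, the losses being *Ptch1*. The log2 ratio of *Hhip* in sphincter 2 to dilator muscle, 1.81, was 2.05 over all 8 libraries. Shares of nuclei with *Hhip*, 88.5% and 47.7%, were 55.7% and 21.2% after thinning. With 2 dilated libraries, few nuclei in leukocytes and endothelial cells, and a threshold on size, small changes could go uncalled.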
